A study of Mus musculus with 383 samples.

Results

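The Hox genes were examined in single tumour cells of mouse skin squamous cell carcinoma, whose full-length cDNA was amplified cell by cell (Smart-seq2) without molecular identifiers. The members were all genes of the count table whose symbol is Hox followed by a, b, c or d and a number, which gave 39 genes of the 49585 in the table. The tumours came from mice with the alleles Lgr5CreER, KrasLSL-G12D, p53fl/fl and Rosa26-YFP+/+, so that an Lgr5-driven inducible Cre, active in a hair follicle stem cell lineage, recombined the other alleles. Both sorted populations share that genotype and were YFP+, and they differ by the sort for Epcam, a surface adhesion protein of epithelia: 310 wells held an Epcam-negative cell and 70 an Epcam-positive cell. The labels name no animal, tumour or culture, and the age of the mice and the inducer were not given in the sources used here. Each population therefore counted as 1 sample, and no test between them was made. The Epcam-negative cells sat in plate rows D to P and the Epcam-positive cells in rows A to C, so the effects of population and of plate position cannot be told apart.

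Hox genes encode homeodomain transcription factors that lie in 4 clusters and give cells their position along the body axis. Within a cluster the gene order follows the axis: low-numbered paralogue groups at the 3′ end act in the hindbrain and neck, central groups in the trunk, and high-numbered groups at the 5′ end in the lumbar, tail and distal limb regions. Adult skin fibroblasts keep a Hox pattern that reflects where on the body they lie, and Hoxc13 is known in hair follicles as a regulator of hair keratins. Polycomb proteins hold silent parts of the clusters shut, trithorax proteins keep active parts open, and Pbx, Meis and Pknox proteins bind DNA together with Hox proteins.

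Filters on depth, gene number, mitochondrial reads and spike-in reads left out 47 of the 310 Epcam-negative and 8 of the 70 Epcam-positive cells. The kept cells had 104330 to 900492 gene reads per cell (median 414731) in the Epcam-negative cells and 109743 to 730528 (median 413142) in the Epcam-positive cells. The kept cells summed to 107313931 and 24840769 gene reads, so that 3 reads, the limit that a count of 0 allows, correspond to 0.0280 CPM (reads per 1000000 gene reads) in the Epcam-negative population and 0.121 CPM in the Epcam-positive population. The sorted marker differed as labelled: Epcam stood at 22.7 CPM in Epcam-negative cells and 1069 CPM in Epcam-positive cells. The 6 epithelial markers summed to 2652 CPM in Epcam-negative and 25100 CPM in Epcam-positive cells, and the level of each differed by at least 2-fold in that direction. The 8 mesenchymal markers summed to 17417 CPM in Epcam-negative and 736 CPM in Epcam-positive cells, and all 8 differed by at least 2-fold in that direction. The well set up with 0 Epcam-negative cells held 4018 gene reads, 1 of them in a Hox gene. The well set up with 0 Epcam-positive cells held 99241 gene reads over 8248 genes and 10 Hox reads, which goes against its label, so it gave no blank level.

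Most Hox reads came from contiguous stretches of the clusters. Promoters of 22 of the 39 genes were available from RefSeq on GRCm38.p6, each with 250 bases before and 50 after the gene's start, and the pairs below set a gene at 1 CPM or more beside one with 1 read or none, the nearest with a sequence, to show both sides of a boundary. Between Hoxb4 and Hoxb1 lie Hoxb2 and Hoxb3, which had reads. Capitals mark CpG dinucleotides, the sites of DNA methylation, which are dense in the promoters of developmental genes. All are written 5′ to 3′ on the gene's strand.
Hoxa5, with reads (chr6:52204538-52204837, minus strand): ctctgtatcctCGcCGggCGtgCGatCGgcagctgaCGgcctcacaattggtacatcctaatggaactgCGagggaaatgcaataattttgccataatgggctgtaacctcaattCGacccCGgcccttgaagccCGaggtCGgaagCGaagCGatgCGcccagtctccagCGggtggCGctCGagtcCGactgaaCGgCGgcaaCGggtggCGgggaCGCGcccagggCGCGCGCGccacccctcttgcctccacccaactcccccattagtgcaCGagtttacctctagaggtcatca
Hoxa6, no reads (chr6:52208623-52208922, minus strand): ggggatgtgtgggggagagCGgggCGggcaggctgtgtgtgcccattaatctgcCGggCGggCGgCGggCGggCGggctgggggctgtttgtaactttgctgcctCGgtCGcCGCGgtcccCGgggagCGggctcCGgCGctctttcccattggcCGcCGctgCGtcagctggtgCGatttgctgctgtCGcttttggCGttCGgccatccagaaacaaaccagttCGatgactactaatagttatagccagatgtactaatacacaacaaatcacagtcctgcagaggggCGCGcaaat
Hoxb4, with reads (chr11:96318017-96318316, plus strand): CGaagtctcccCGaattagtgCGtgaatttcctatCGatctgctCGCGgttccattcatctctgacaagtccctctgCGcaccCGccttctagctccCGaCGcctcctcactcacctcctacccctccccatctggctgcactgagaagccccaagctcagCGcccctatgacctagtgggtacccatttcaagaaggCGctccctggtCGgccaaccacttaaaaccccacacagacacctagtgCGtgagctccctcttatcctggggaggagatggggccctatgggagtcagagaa
Hoxb1, 1 read (chr11:96365508-96365807, plus strand): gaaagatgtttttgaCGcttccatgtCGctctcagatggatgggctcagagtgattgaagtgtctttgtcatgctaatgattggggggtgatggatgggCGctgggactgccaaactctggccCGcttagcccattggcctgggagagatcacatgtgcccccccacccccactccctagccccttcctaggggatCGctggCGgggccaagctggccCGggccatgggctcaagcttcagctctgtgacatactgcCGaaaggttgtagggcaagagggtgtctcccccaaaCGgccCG
Hoxd8, with reads (chr2:74704365-74704664, plus strand): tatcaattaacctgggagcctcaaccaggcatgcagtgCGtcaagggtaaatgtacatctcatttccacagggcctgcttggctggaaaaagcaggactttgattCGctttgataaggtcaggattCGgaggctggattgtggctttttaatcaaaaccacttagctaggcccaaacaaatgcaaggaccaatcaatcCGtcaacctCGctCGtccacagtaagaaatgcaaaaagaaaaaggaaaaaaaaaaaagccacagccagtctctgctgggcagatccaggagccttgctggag
Hoxd9, no reads (chr2:74697513-74697812, plus strand): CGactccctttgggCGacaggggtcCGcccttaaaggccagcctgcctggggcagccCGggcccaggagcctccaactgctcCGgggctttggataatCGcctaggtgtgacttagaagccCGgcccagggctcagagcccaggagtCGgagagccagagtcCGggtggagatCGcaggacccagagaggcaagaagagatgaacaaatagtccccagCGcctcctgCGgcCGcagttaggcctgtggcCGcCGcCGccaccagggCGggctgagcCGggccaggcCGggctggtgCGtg

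These windows differed widely in CpG number. Hoxa5 held 29 CpG and Hoxa6 26, Hoxb4 held 14 and Hoxb1 10, and Hoxd8 held 6 and Hoxd9 20. Over all 32544 RefSeq promoters the median was 7 CpG. The 7 windows of Hox genes with 1 CPM or more in either population had a median of 13 (range 6 to 29), and the 15 windows of genes with no read a median of 20 (range 4 to 45). Those 7 windows were all of genes under 10 CPM. Hoxb7, Hoxb9, Hoxc5 and Hoxc8, the genes at 10 CPM or more, had no window, nor had Hoxc13. The letters TGATNNAT, a form of the Pbx-Hox binding motif, were searched on both strands and occurred in 4 of the 24 Hox windows, Hoxb1 among those shown, and in 8.79% of all promoters. A match is a description of the letters, not a binding site.

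The 39 genes divided into 20 with at least 1 CPM in either population (51.3%, against 58.9% of all protein-coding genes), 2 with reads but under 1 CPM in both (Hoxa7 and Hoxb1), and 17 with no read in either (43.6%, against 26.9% of protein-coding genes). With a gene called on at 10 CPM or more, 3 Hox genes were on in Epcam-negative cells, Hoxb7, Hoxb9 and Hoxc8 (7.69%, against 39.3% of protein-coding genes). In Epcam-positive cells 1 was on, Hoxc5 (2.56%, against 38.5%), with 57.1% of its reads there from 1 cell. Hoxb7, Hoxb9 and Hoxc8 stood at 8.25, 7.89 and 8.66 CPM there, under the limit. Hoxc5 stood at 9.20 CPM in Epcam-negative cells. All Hox genes together took 14255 reads or 132.8 CPM in Epcam-negative cells and 1510 reads or 60.8 CPM in Epcam-positive cells.

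**Figure D1:**
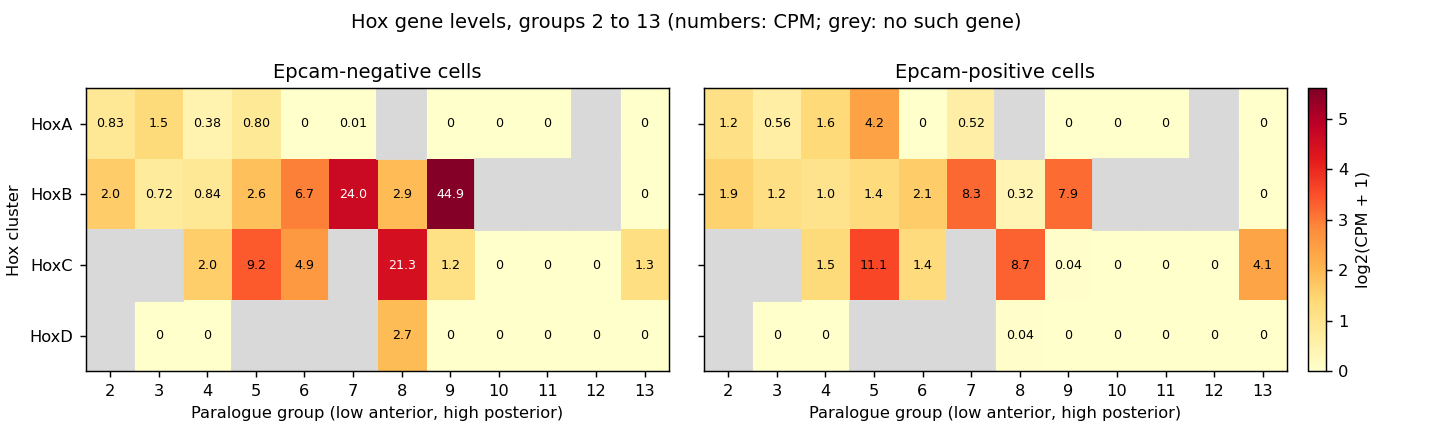
Level of the Hox genes of paralogue groups 2 to 13 in Epcam-negative cells (left) and Epcam-positive cells (right), by cluster (rows) and paralogue group (columns), coloured by log2(CPM + 1) with the CPM printed in each square and grey where the mouse has no such gene. Reads lay in HoxB and HoxC from group 2 to group 9, in the anterior HoxA genes, in Hoxd8 and in Hoxc13, and groups 10 to 12 were empty in both populations.

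HoxB, on chromosome 11 from 96194316 to 96368256 (GRCm38), was the cluster with most reads in Epcam-negative cells. It summed to 84.6 CPM in Epcam-negative cells and 24.2 CPM in Epcam-positive cells, a log2 ratio of 1.76 (exact 95% interval 1.65 to 1.88, counting error only). HoxC, on chromosome 15 from 102921103 to 103036852, summed to 39.97 CPM in Epcam-negative cells and 26.8 CPM in Epcam-positive cells, a log2 ratio of 0.56 (0.45 to 0.68). All ratios are log2 of (Epcam-negative CPM + 1) over (Epcam-positive CPM + 1), which understates the ratio of low genes. HoxB thus gave 63.7% of all Hox reads in Epcam-negative cells, against 39.8% in Epcam-positive cells, and HoxC gave 30.1% in Epcam-negative cells, against 44.04% in Epcam-positive cells. HoxC was the cluster with most reads in Epcam-positive cells, but its interval there (24.8 to 28.9 CPM) overlapped that of HoxB (22.3 to 26.2 CPM). In Epcam-positive cells 38.2% of the HoxC reads and 20.8% of the HoxB reads came from 1 cell, so the order of these clusters was not settled.

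HoxA, on chromosome 6, stood at 5.53 CPM in Epcam-negative cells and 9.78 CPM in Epcam-positive cells, a log2 ratio of -0.72 (-0.92 to -0.53). Without the cell with most reads of each gene in each population, the ratio of HoxA was 0.18, so its direction rested on single cells, while HoxB stood at 2.13 and HoxC at 1.25. HoxD, on chromosome 2 from 74668310 to 74765142, was read through 1 gene, Hoxd8, with 2.75 CPM in Epcam-negative cells and 1 read (0.0403 CPM) in Epcam-positive cells. By plate columns 1 to 12 and 13 to 24, the ratio of HoxB was 2.30 and 1.33, that of HoxC 1.00 and 0.16, that of HoxA -0.96 and -0.30, and that of HoxD 1.91 and 1.78. Scaling by spike-in reads in place of gene reads gave 1.42 for HoxB, 0.22 for HoxC, -1.03 for HoxA and 1.72 for HoxD, and moved the median of all genes by -0.32.

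Summed across clusters, the higher levels of Epcam-negative cells lay in paralogue groups 6 to 9, and there in HoxB, HoxC and Hoxd8. Hoxb9 held 4817 of the 4947 Epcam-negative reads of group 9, and Hoxb7 held 2573 of the 2574 of group 7. In HoxA, Hoxa6 and Hoxa9 had no read. Hoxa7 had 1 read (0.00932 CPM) in Epcam-negative cells and 13 reads (0.523 CPM), all from 1 cell, in Epcam-positive cells. Summed over group 9, the genes stood at 46.1 CPM in Epcam-negative cells and 7.93 CPM in Epcam-positive cells, a log2 ratio of 2.40 (2.21 to 2.59). The ratios of groups 6, 7 and 8 were 1.47, 1.35 and 1.48, with 11.6, 23.99 and 26.9 CPM in Epcam-negative cells and 3.54, 8.78 and 9.02 CPM in Epcam-positive cells. Groups 2 to 5 had ratios of -0.05, 0.19, -0.27 and -0.38. Group 5, the most abundant of these, stood at 12.6 CPM in Epcam-negative and 16.7 CPM in Epcam-positive cells. Groups 10, 11 and 12 had no read in either population, and group 13 came from Hoxc13 alone.

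**Figure D2:**
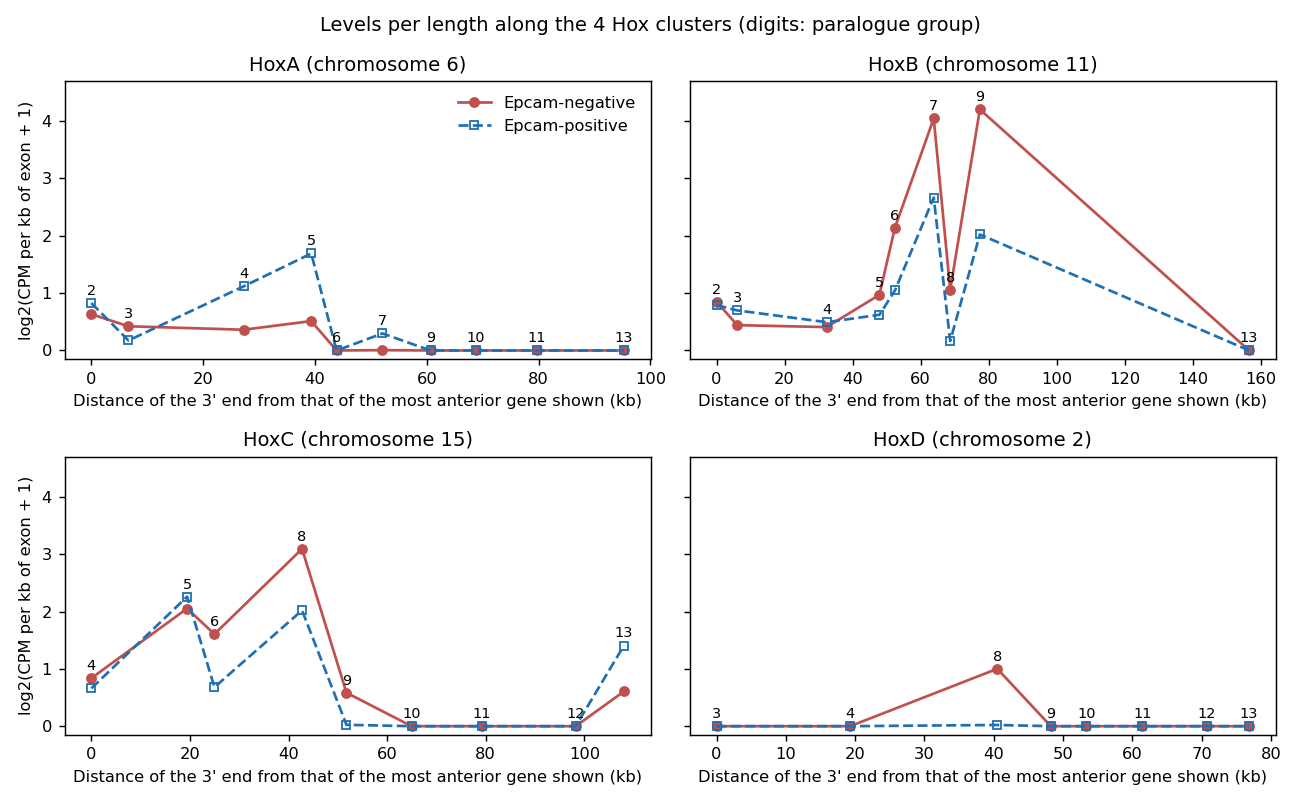
Level per length, as log2(CPM per kb of exon + 1), of the Hox genes of groups 2 to 13 against the distance of the 3′ end from that of the most anterior gene shown in the same cluster, for Epcam-negative (filled circles) and Epcam-positive cells (open squares), with paralogue groups as digits. Levels peaked at Hoxb7, Hoxb9 and Hoxc8 in Epcam-negative cells and at Hoxb7 and Hoxc5 in Epcam-positive cells, and were at 0 beyond Hoxa7, Hoxc9 (until Hoxc13) and Hoxd8.

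Hoxb9, a group 9 gene of the thoracic trunk, was the Hox gene with the highest level in Epcam-negative cells. It lies on chromosome 11 from 96271457 to 96276595 (ENSMUSG00000020875.9). Single Epcam-negative cells ranged from 0 to 772 CPM with a median of 5.54 CPM, and Epcam-positive cells from 0 to 96.9 CPM with a median of 0. The ranges overlapped, and the highest cells were Epcam-negative. The summed populations gave 44.9 CPM (43.6 to 46.2) in Epcam-negative cells and 7.89 CPM (6.82 to 9.08) in Epcam-positive cells, a log2 ratio of 2.37 (2.18 to 2.56). With each cell thinned to 100000 reads, and a gene called present at 5 of them, Hoxb9 was called in 72 of the kept Epcam-negative cells (27.4%, Clopper-Pearson 22.1 to 33.2) and 6 of the 62 Epcam-positive cells (9.68%, 3.63 to 19.9). At least 1 read before thinning was found in 61.2% of Epcam-negative and 19.4% of Epcam-positive cells. Its ratio was 2.65 without the top cell of each population, 3.01 within plate columns 1 to 12 and 1.88 within 13 to 24.

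Hoxb7, a trunk gene of group 7 on chromosome 11 from 96286623 to 96290162 (ENSMUSG00000038721.8), followed. Its cells ranged from 0 to 203.4 CPM in the Epcam-negative population and from 0 to 184.2 CPM in the Epcam-positive population, with a median of 0 in both. The sums were 23.98 CPM in Epcam-negative and 8.25 CPM in Epcam-positive cells, a log2 ratio of 1.43 (1.25 to 1.62). It was present in 39 Epcam-negative cells (14.8%, 10.8 to 19.7) and 3 Epcam-positive cells (4.84%, 1.01 to 13.5), intervals that overlap. Its ratio was 1.74 without the top cells, 1.90 within plate columns 1 to 12 and 1.02 within 13 to 24.

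Hoxc8, which acts in the thoracic skeleton and in limb motor neurons, lies on chromosome 15 from 102990607 to 102994111 (ENSMUSG00000001657.7). Its cells ranged from 0 to 416 CPM in the Epcam-negative and from 0 to 178.9 CPM in the Epcam-positive population, again with a median of 0 in both. The sums were 21.3 CPM in Epcam-negative and 8.66 CPM in Epcam-positive cells, a log2 ratio of 1.21 (1.03 to 1.40). In Epcam-positive cells 44.7% of its reads came from 1 cell, against 7.03% in Epcam-negative cells, and the ratio without these was 1.83. It was present in 34 Epcam-negative cells (12.9%, 9.12 to 17.6) and 4 Epcam-positive cells (6.45%, 1.79 to 15.7), intervals that overlap. In plate columns 13 to 24 its ratio was 0.58, against 1.89 in columns 1 to 12.

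Hoxc5, a gene of the neck and upper trunk on chromosome 15 from 102967443 to 103017429 (ENSMUSG00000022485.3), was the member on in Epcam-positive cells. Its annotated span reaches over its 5′ neighbours as far as Hoxc10. Cells ranged from 0 to 328 CPM in the Epcam-negative and from 0 to 292.5 CPM in the Epcam-positive population. The sums were 9.20 CPM in Epcam-negative and 11.07 CPM in Epcam-positive cells, a log2 ratio of -0.24 (-0.42 to -0.06). Of its Epcam-positive reads 57.1% came from 1 cell. Without the top cells the levels were 7.78 CPM in Epcam-negative and 4.86 CPM in Epcam-positive cells and the ratio was 0.58, so that Hoxc5 was then on in neither population. Its ratio was also above 0 in plate columns 1 to 12 (0.43) and below 0 in columns 13 to 24 (-0.85). It was present in 4.56% of Epcam-negative and 4.84% of Epcam-positive cells.

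**Figure D3:**
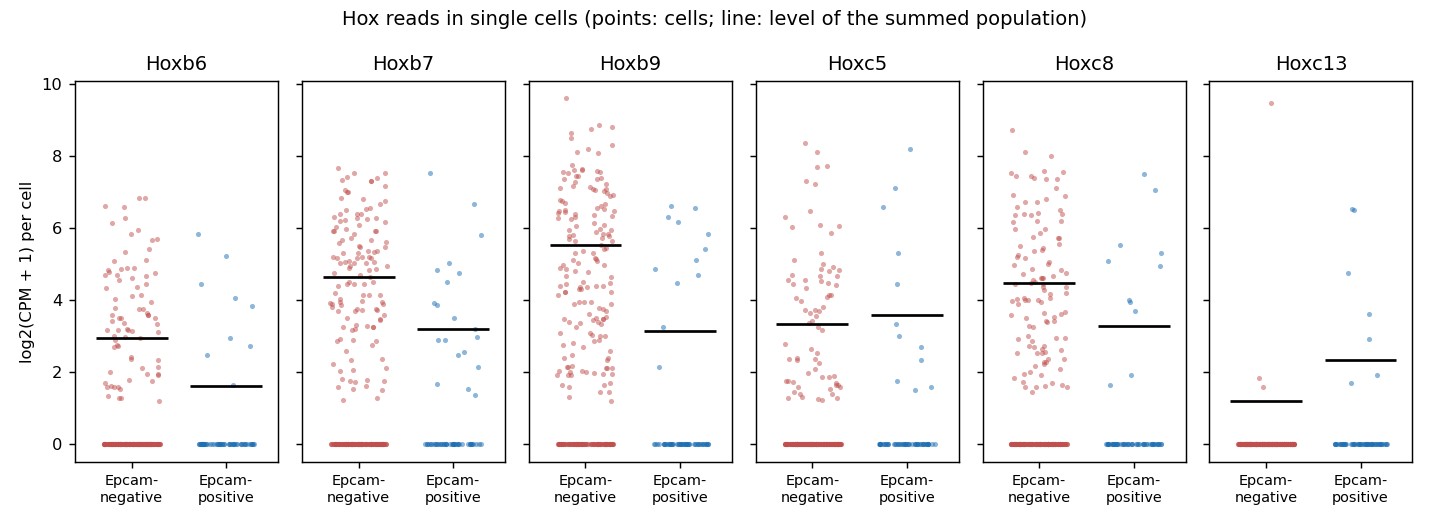
Level of 6 Hox genes in single cells, as log2(CPM + 1), for the kept Epcam-negative cells (left in each panel) and the 62 Epcam-positive cells (right). Each point is a cell, spread sideways at random, and the black line is the level of the summed population. Hoxb9 had reads in most Epcam-negative cells. The Epcam-negative level of Hoxc13 rested on 1 high cell, and 7 Epcam-positive cells had Hoxc13 reads.

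Per kb of exon not shared with another gene, the scale on which genes can be set against each other, Hoxb9 (17.4 CPM per kb) and Hoxb7 (15.5) led in Epcam-negative cells, ahead of Hoxc8 (7.53), Hoxb6 (3.41) and Hoxc5 (3.15). In Epcam-positive cells the order was Hoxb7 (5.34 CPM per kb), Hoxc5 (3.79), Hoxb9 (3.07), Hoxc8 (3.06), Hoxa5 (2.23) and Hoxc13 (1.65). This order rested in part on single cells: without the top cell of each gene Hoxb7 stood at 4.02, Hoxb9 at 2.30, Hoxc8 at 1.73, Hoxc5 at 1.66, Hoxc13 at 1.10 and Hoxa5 at 0.812 CPM per kb in Epcam-positive cells. Hoxb9 and Hoxc8 were not distinguishable on this scale in Epcam-positive cells. Levels between neighbours in a cluster were uneven in both populations: Hoxb8, between Hoxb7 and Hoxb9, summed to 2.85 CPM in Epcam-negative and 0.322 CPM in Epcam-positive cells.

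Of the 20 measured genes, 8 were past 2-fold on the Epcam-negative side (40%, against 20.1% of the 14565 genes measured), and 2 on the Epcam-positive side (10%, against 14.3%). Their median log2 ratio was 0.41, against -0.01 over all measured genes, and 13 of the 20 were higher by any amount (65%, against 49.5%). For 8 genes more than 50% of the Epcam-positive reads came from 1 cell, which was so for 1 gene in Epcam-negative cells. Among the 8, Hoxc9 and Hoxd8 had only 1 Epcam-positive read each, which fixes their share. The Epcam-positive population also had fewer cells and fewer Hox reads, which by itself can raise the share of the top cell. The counts of 8 and 1 therefore do not compare the populations, and no such count over all genes is given here. Without the top cell of each gene in each population, 7 genes were 2-fold higher and 1 was 2-fold lower. Of the 20 genes, 12 had ratios of 1 sign in plate columns 1 to 12 and 13 to 24. Shares over all genes at these settings are not given here, so these counts have no background beside them.

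**Figure D4:**
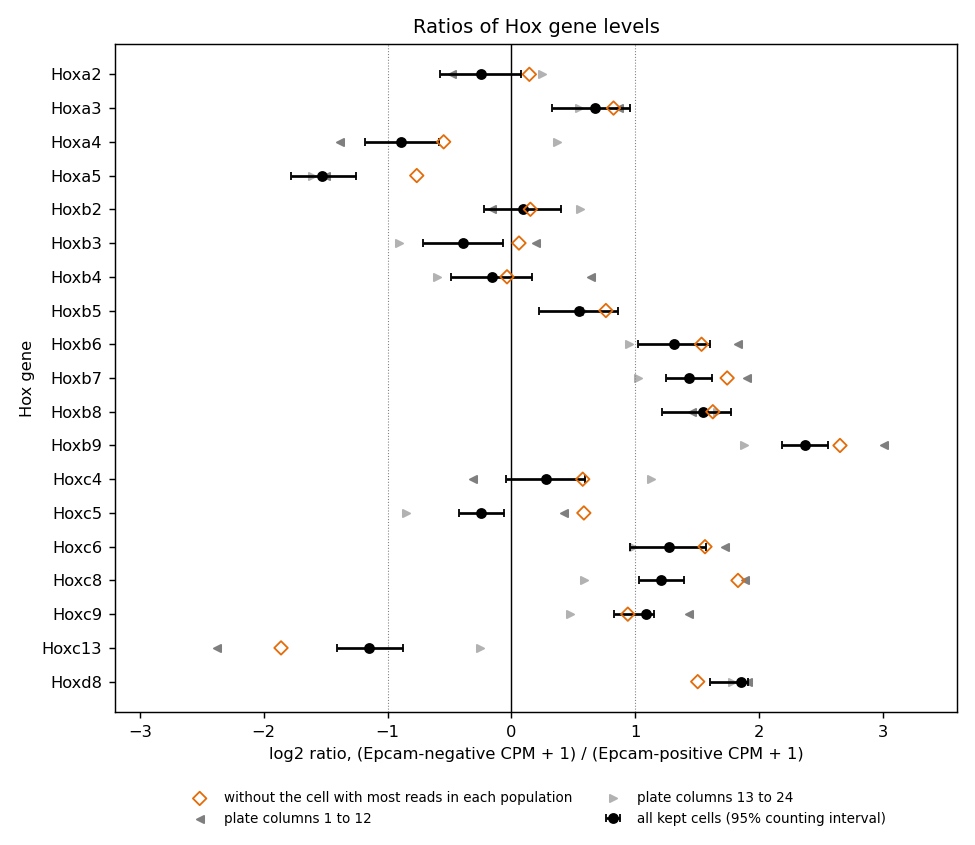
Log2 ratio of the Epcam-negative to the Epcam-positive level for 19 of the 20 Hox genes with 1 CPM or more in either population, with exact 95% counting intervals (black), the ratio without the top cell of each population (orange diamonds) and the ratios within plate columns 1 to 12 and 13 to 24 (grey triangles). Dotted lines mark 2-fold; Hoxb6 to Hoxb9, Hoxc6, Hoxc8, Hoxc9 and Hoxd8 lie to the right of 1, and Hoxa5 and Hoxc13 to the left of -1.

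The genes under 10 CPM that were 2-fold higher in Epcam-negative cells were all of groups 6, 8 and 9. Hoxb6, a trunk gene on chromosome 11, stood at 6.70 CPM in Epcam-negative and 2.09 CPM in Epcam-positive cells (log2 ratio 1.32, 1.02 to 1.60), with a read in 30.0% of Epcam-negative and 14.5% of Epcam-positive cells. Hoxc6, a group 6 gene of the upper trunk on chromosome 15, stood at 4.92 CPM in Epcam-negative and 1.45 CPM in Epcam-positive cells (1.27, 0.96 to 1.57), with a read in 38.4% of Epcam-negative and 19.4% of Epcam-positive cells. Hoxb8 had a ratio of 1.54 (1.22 to 1.77), and was detected with 1 read or more in 31.6% of Epcam-negative and 6.45% of Epcam-positive cells. These 3 kept ratios between 0.95 and 1.83 without the top cells and within each set of plate columns.

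Hoxc9 and Hoxd8 each had 1 read in Epcam-positive cells. Hoxc9 stood at 1.21 CPM in Epcam-negative cells, with reads in 18 cells (ratio 1.09, 0.83 to 1.15). Its ratio was under 2-fold without the top cells (0.94) and in plate columns 13 to 24 (0.47), against 1.43 in columns 1 to 12. Hoxd8 had reads in 15 Epcam-negative cells, with 33.6% of its reads there from 1 cell (ratio 1.85, 1.60 to 1.91). In Epcam-positive cells both genes stood at 0.0403 CPM (0.00102 to 0.224). This level is under the 0.121 CPM that a count of 0 allows at this depth, but its interval reaches above that.

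Over all kept cells the anterior genes were under 2-fold in either direction, apart from Hoxa5. Hoxb2 (0.09), Hoxa2 (-0.24), a gene of the second pharyngeal arch, Hoxb3 (-0.39), Hoxb4 (-0.15) and Hoxc4 (0.28) all had ratios below 2-fold, as did Hoxb5 (0.55), Hoxa3 (0.67), which is needed for the thymus and parathyroid, and Hoxa4 (-0.89). Without the top cells the ratios were 0.15 for Hoxb2, 0.14 for Hoxa2, 0.06 for Hoxb3, -0.04 for Hoxb4 and 0.58 for Hoxc4. They were 0.76 for Hoxb5, 0.82 for Hoxa3 and -0.55 for Hoxa4. Within plate columns 1 to 12 and 13 to 24, Hoxc4 stood at -0.31 and 1.12, and Hoxa4 at -1.39 and 0.37. Hoxa5, which acts in lung and at the neck to thorax boundary (chromosome 6 from 52201754 to 52204587), was lower in Epcam-negative cells, at 0.801 CPM against 4.19 CPM in Epcam-positive cells (-1.53, -1.78 to -1.26). It had reads in 16 Epcam-negative and 4 Epcam-positive cells, and 64.4% of its Epcam-positive reads came from 1 cell. Without the top cells its ratio was -0.76. Hoxa2 to Hoxa4, Hoxb2, Hoxb3 and Hoxb5 overlap other annotated genes, several of them antisense, and the library kit does not mark strand, so reads of the shared bases could not be told apart.

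Hoxc13, the hair keratin regulator (chromosome 15 from 102921103 to 102928814), was the one gene of groups 10 to 13 with reads. It stood at 1.29 CPM in Epcam-negative cells and 4.07 CPM in Epcam-positive cells, a log2 ratio of -1.15 (-1.41 to -0.88). Reads were found in 3 Epcam-negative cells (1.14%) and 7 Epcam-positive cells (11.3%). Without the top cells the levels were 0.0187 CPM in Epcam-negative and 2.70 CPM in Epcam-positive cells (ratio -1.86). Of the Epcam-negative reads 98.6% came from 1 cell at 701 CPM. That cell was among the 10 Epcam-negative cells in which Epcam itself was present. Its ratio was -2.38 within plate columns 1 to 12 and -0.25 within 13 to 24.

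The genes without a read in either population were Hoxa6, Hoxa9, Hoxa10, Hoxa11 and Hoxa13, Hoxb13, Hoxc10, Hoxc11 and Hoxc12, and Hoxd1, Hoxd3, Hoxd4 and Hoxd9 to Hoxd13. They include the genes of the lumbar, sacral and distal limb positions, such as Hoxa13 and Hoxd13, which shape the digits and genitalia, and Hoxb13, a gene of the tail and prostate. Over all 380 labelled cells, those left out by the filters included, these 17 genes had 1 read in total. Of the 2 genes with reads but under 1 CPM, Hoxa7 had 1 read in an Epcam-negative cell and 13 reads in 1 Epcam-positive cell, and Hoxb1 had 0 reads in Epcam-negative cells and 1 read in Epcam-positive cells.

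In single cells, at least 1 Hox gene was called in 55.1% of Epcam-negative cells (interval 48.9 to 61.2), against 19 of 62 Epcam-positive cells (30.6%, 19.6 to 43.7). HoxB genes were present in 40.3% of Epcam-negative cells and 14.5% of Epcam-positive cells, and HoxC genes in 19.4% of Epcam-negative cells and 12.9% of Epcam-positive cells. The summed Hox level of a cell had a median of 98.96 CPM (quartiles 36.6 and 183.7) in Epcam-negative cells and 32.9 CPM (5.07 and 80.6) in Epcam-positive cells. The highest cells reached 841 CPM in the Epcam-negative and 706 CPM in the Epcam-positive population, and 18 Epcam-negative and 8 Epcam-positive cells had no Hox read. The median cell had reads in 4 Hox genes in the Epcam-negative population (highest 13) and in 2 in the Epcam-positive population (highest 9).

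**Figure D5:**
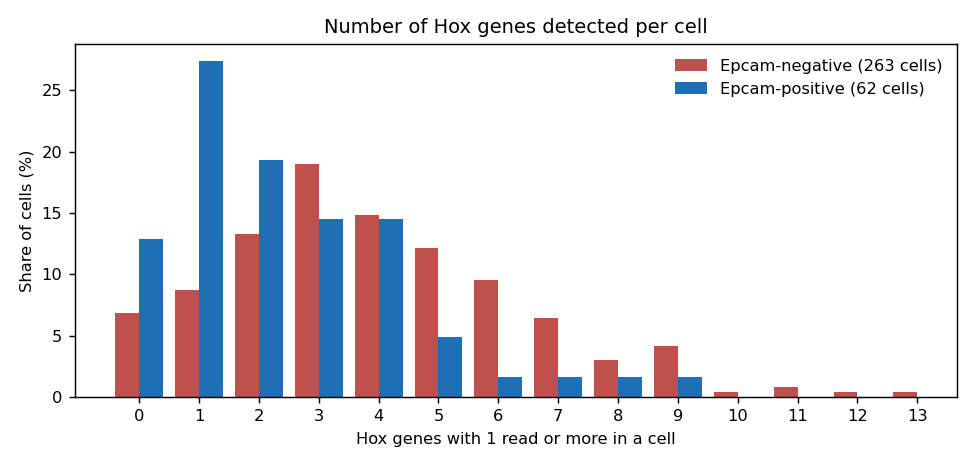
Share of cells by the number of Hox genes with at least 1 read before thinning, for Epcam-negative (left bar of each pair) and Epcam-positive cells (right bar). The median was 4 genes in Epcam-negative cells, against 2 in Epcam-positive cells.

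Single cells rarely showed several Hox genes at the presence level: 2 or more were present in 49 Epcam-negative cells (18.6%) and 2 Epcam-positive cells (3.23%). At 1 thinned read, Hoxb7 and Hoxb9 were found together in 60 Epcam-negative cells, where the product of their shares gives 50.04 cells, and Hoxb9 and Hoxc8 in 42, where it gives 42.56. Hoxb6 and Hoxb7, which are neighbours on the chromosome, were found together in 35 cells against a product of 21.2, the pair with the highest correlation of the 55 examined. Other neighbouring pairs were nearer to the product, by differing amounts. Hoxc5 and Hoxc6 were found together in 12 cells (12.05), Hoxc6 and Hoxc8 in 24 (22.8) and Hoxb5 and Hoxb6 in 7 (5.93). Hoxb8 and Hoxb9 were found together in 29 (20.1), and Hoxb7 and Hoxb8 in 22 (17.5). Hoxc4 and Hoxc5 were found together in 7 (4.75), and Hoxb2 and Hoxb3 in 1 (0.776). Across the Epcam-negative cells the Pearson correlation of log CPM was 0.35 for Hoxb6 and Hoxb7 and -0.06 for Hoxc5 and Hoxc6, the cells sharing a plate and differing in depth.

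The mesenchymal markers moved with the HoxB and HoxC genes of groups 6 to 9 between populations, and their part in the difference was not tested. Within the Epcam-negative population, the 57.4% of cells with Pdgfra present had 129.4 CPM of Hox reads and the others 137.9 CPM. HoxD stood at 4.58 CPM in the cells with Pdgfra and 0.0688 CPM in those without. These reads were of Hoxd8 alone, which had reads in 15 Epcam-negative cells, with 33.6% from 1 cell. In cells with and without Pdgfra, HoxA stood at 3.00 and 9.22 CPM, HoxB at 78.3 and 93.7 CPM, and HoxC at 43.5 and 34.8 CPM. By the basal keratin Krt14, the 49.05% of Epcam-negative cells with it present had 134.8 CPM of Hox reads and the others 130.99 CPM, and Hoxb9 stood at 44.3 CPM in cells with Krt14 and 45.4 CPM in cells without. By the proliferation gene Mki67, the 24 Epcam-negative cells with it present had 138.7 CPM and the others 132.2 CPM. Each of these levels of all Hox genes together was above the 60.8 CPM of Epcam-positive cells. Of the markers of other cell types, the 5 immune markers summed to 20.6 CPM in Epcam-negative and 25.4 CPM in Epcam-positive cells, with Ptprc at 0.0932 CPM in Epcam-negative cells and no read in Epcam-positive cells, and Cd68 the most abundant, at 7.99 CPM in Epcam-negative and 15.3 CPM in Epcam-positive cells. Endothelial markers summed to 4.66 CPM in Epcam-negative and 15.7 CPM in Epcam-positive cells with Tek at 0 in both, and pericyte markers to 59.8 CPM in Epcam-negative and 20.9 CPM in Epcam-positive cells. Of the 3 pericyte markers 2 were past 2-fold on the Epcam-negative side, Cspg4 with 37.8 CPM in Epcam-negative and 16.5 CPM in Epcam-positive cells and Rgs5 with 13.2 CPM in Epcam-negative and no read in Epcam-positive cells, and their part in the Hox levels was not tested. Dermal papilla markers summed to 0.652 CPM in Epcam-negative and 2.62 CPM in Epcam-positive cells with Sox18 at 0 in both, and melanocyte markers to 2.03 CPM in Epcam-negative and 2.25 CPM in Epcam-positive cells. Schwann markers had 3 reads in Epcam-negative and none in Epcam-positive cells, and erythroid markers summed to 0.177 CPM in Epcam-negative and 1.05 CPM in Epcam-positive cells.

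All 9 Hox cofactors were measured, and all but Pknox2 had reads in both populations. Of the 9, 3 were past 2-fold on the Epcam-negative side (against 20.1% of all measured genes) and 0 on the other (against 14.3%), with a median log2 ratio of 0.49. Meis1 stood at 7.60 CPM in Epcam-negative and 2.21 CPM in Epcam-positive cells (1.42, and 0.71 in plate columns 1 to 12), and Meis3 at 2.12 CPM in Epcam-negative cells with 2 reads (0.0805 CPM) in Epcam-positive cells (1.53). Pknox2 stood at 2.38 CPM in Epcam-negative cells and had no read in Epcam-positive cells, at least 19.7-fold higher against the limit of 3 reads over that population. Pknox1 stood at 14.6 CPM in Epcam-negative and 7.29 CPM in Epcam-positive cells (0.91).

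Among 20 chromatin regulators of Hox genes, all measured, 2 stood at least 2-fold higher and 1 lower in Epcam-negative cells, where 20.1% and 14.3% of all measured genes did, with a median log2 ratio of -0.17. Cbx7, a Polycomb chromodomain protein, stood at 6.21 CPM in Epcam-negative and 0.523 CPM in Epcam-positive cells (2.24), and Phc1, another Polycomb subunit, at 20.7 CPM in Epcam-negative and 8.57 CPM in Epcam-positive cells (1.18, and 0.82 in plate columns 1 to 12). Jarid2, which binds the Polycomb methyltransferase complex, stood at 31.7 CPM in Epcam-negative and 73.2 CPM in Epcam-positive cells (-1.18, and -0.80 in plate columns 13 to 24), and Cbx8 at 2.67 CPM in Epcam-negative and 6.16 CPM in Epcam-positive cells (-0.97). The methyltransferase Ezh2, the most abundant in Epcam-positive cells, stood at 78.7 CPM in Epcam-negative and 121.1 CPM in Epcam-positive cells (-0.62). The H3K27 demethylase gene Kdm6b, the most abundant in Epcam-negative cells, stood at 131.4 CPM in Epcam-negative and 87.7 CPM in Epcam-positive cells (0.58).

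Of 34 positional transcription factors outside the Hox clusters, 13 were measured, 3 stood at least 2-fold higher and 9 lower in Epcam-negative cells, where 20.1% and 14.3% of all measured genes did, with a median log2 ratio of -1.13. Pitx1, which specifies the hindlimb, stood at 4.80 CPM in Epcam-negative and 85.8 CPM in Epcam-positive cells (-3.90, -4.02 to -3.78), and was present in 1.52% of Epcam-negative and 33.9% of Epcam-positive cells. Tbx18, a T-box factor of mesenchymal lineages, stood at 36.4 CPM in Epcam-negative cells and had 1 read in Epcam-positive cells (5.17), and was present in 17.9% of Epcam-negative cells and 0 of 62 Epcam-positive cells, which allows a share of up to 5.78% (Clopper-Pearson). Emx2 stood at 5.49 CPM in Epcam-negative cells with 1 read in Epcam-positive cells (2.64), and Barx2 at 2 reads (0.0186 CPM) in Epcam-negative cells and 4.07 CPM in Epcam-positive cells (-2.31). Of the Barx2 reads in Epcam-positive cells 69.3% came from 1 cell, and without the top cells its ratio was -1.17. The limb genes Tbx4 and Tbx5 and the caudal genes Cdx2 and Cdx4 were among 14 with no read in either population.

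Of 12 listed non-coding transcripts of the Hox clusters, 11 were in the table and 6 were measured, 3 of them past 2-fold on the Epcam-negative side (against 20.1% of all measured genes) and 0 on the other (against 14.3%). Hotairm1 was the most abundant, at 4.85 CPM in Epcam-negative and 3.22 CPM in Epcam-positive cells (0.47). Hoxaas2 stood at 2.44 CPM and Halr1 at 2.19 CPM in Epcam-negative cells, and neither had a read in Epcam-positive cells, which makes them at least 20.2-fold and 18.1-fold higher. Of the Hoxaas2 reads 54.2% came from 1 cell, without which the level was 1.12 CPM and the bound 9.31-fold. Hoxb5os stood at 2.08 CPM in Epcam-negative and 0.322 CPM in Epcam-positive cells (1.22). Hotair, Hottip, Hoxa11os and Haglr had no read in either population.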

How the data were processed

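Smart-seq2 libraries of single sorted cells were sequenced on 1 plate with reads of 50 bases. Per the submitters' processing notes, cutadapt 1.13, STAR 2.5.2b, HTSeq 0.6.0 and the build GRCm38 were used. The authors deposited raw counts of reads for every gene and spike-in of 383 wells. The annotation release and strand setting were not given in the sources used here. Of 49585 gene identifiers, 49326 were given a symbol from GENCODE vM21, whose coordinates are used.

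Cells were kept with at least 100000 gene reads, 2000 genes, at most 20% mitochondrial reads and at most 50% spike-in reads, which left out 47 Epcam-negative and 8 Epcam-positive cells. No doublet caller was used. Reads were summed per population and expressed as CPM, reads in 1000000 gene reads, with 1 CPM added in ratios. Intervals are exact 95% intervals (Poisson, Clopper-Pearson, conditional binomial; scipy 1.17.1), and intervals and limits cover counting error only, since without molecular identifiers reads cannot be taken as independent molecules. A fold against a population without reads is a lower bound from 3 reads over that population. edgeR 4.0.16 (TMM) and DESeq2 1.42.0 gave scaling factors for alternatives, and no count test was run, since each population was 1 sample. The ratio and thinning steps were tested on simulated data.

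Named genes are all Hox genes at 10 CPM or more, those from 1 CPM with ranges and counts, and, per list, up to 4 with the largest ratio and the most abundant. Some results that these rules name are not reported here. The Hox genes, the lists (cofactors, chromatin regulators, positional genes, cluster transcripts, cell type markers) and the rules were chosen with earlier results of these data known. Alternatives covered the cell filter, summary, scaling, top cells, plate columns, pseudocount, thresholds and presence rule.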

Additional observations from a re-analysis of the deposited data

How the results depend on the processing

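The summary results were 7: the counts of Hox genes on, the counts past 2-fold, the median ratio and the 2 shares of cells with a Hox gene present. They were recomputed 77 times and stayed within 1.5 times of their value, or within their spread, in 58 of these. Of the 20 single genes, none that was past 2-fold changed sign. The count on in Epcam-positive cells was 0 with the mean of each cell's CPM, without the top cell of each gene, in plate columns 1 to 12 and at 20 CPM, 4 in columns 13 to 24 and 16 at 1 CPM, and the count on in Epcam-negative cells was 15 at 1 CPM. Without the top cells 1 gene was 2-fold lower in Epcam-negative cells and the median over the 15 genes still at 1 CPM was 0.82. In columns 13 to 24, 5 genes were 2-fold higher. With a pseudocount of 10 CPM 1 gene was 2-fold higher and 0 lower, and with a minimum of 10 CPM, which leaves 4 genes, 3 were higher, 0 lower and the median was 1.32. Shares over all genes under these alternatives are not given here, so the counts have no background beside them. The share of cells with a Hox gene was 89.7% in Epcam-negative cells, against 74.2% in Epcam-positive cells, at 1 thinned read, and 11.8% in Epcam-negative cells, against 1.61% in Epcam-positive cells, at 20. Over all alternatives the log2 ratio ran from 1.62 to 3.01 for Hoxb9, 0.90 to 1.90 for Hoxb7, 0.58 to 1.89 for Hoxc8, -0.85 to 0.58 for Hoxc5 and -2.45 to -0.25 for Hoxc13. TMM, median-of-ratios and spike-in scaling moved the median of all genes by 0.12, 0.10 and -0.32. The causes were not tested. No paired analysis was possible because the labels give no replicate numbers and each population is 1 sample. With 62 Epcam-positive cells, a gene found in 0 of them could still have a share of up to 5.78%.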

Other observations

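The annotation holds 46 other transcripts inside the Hox clusters, of which 10 were measured and 32 had no read in either population. The most abundant, chosen after its values were seen, was Gm53, a lincRNA on chromosome 11 from 96251105 to 96264868 (GRCm38), between Hoxb13 and Hoxb9. It stood at 19.3 CPM in Epcam-negative and 22.02 CPM in Epcam-positive cells, a log2 ratio of -0.18, and of 0.04 without the top cells. Reads were found in 46.01% of Epcam-negative and 37.1% of Epcam-positive cells. Its neighbour Hoxb9 had a ratio of 2.37, and the difference between these ratios was not tested.

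The well set up with 50 Epcam-negative cells held 154897 gene reads, and 15 of them lay in 9 Hox genes, which is 96.8 CPM (Poisson interval 54.2 to 159.7). That interval includes the 132.8 CPM of the summed single Epcam-negative cells. It also includes the 60.8 CPM of Epcam-positive cells, so the reads of this well cannot tell these levels apart.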
